A study of Mus musculus with 12 samples.

Results

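Of 22494 Bach2 peaks deposited for mouse induced regulatory T (iTreg) cells, 2053 (9.13%) lie at a gene start. A peak was taken as a start peak when its midpoint lay within 1000 bp of the start of a gene, which is the low end of the deposited locus for a gene on the plus strand and the high end for a gene on the minus strand. The other peaks fell inside a gene body (10884) or between genes (9557). The start peaks form 2254 pairs with 2184 genes, out of 22509 genes with a strand. The position alone chose them, so no tag count or expression value entered the choice.

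All libraries come from C57BL/6J mice, whose splenic and lymph node CD4+ T cells were sorted as naive cells by surface markers, among them the absence of CD44 and CD25. For the iTreg condition they were kept for 3 days with plate-bound antibodies to CD3 and CD28, IL-2 (100 IU/ml) and human TGF-β1 (5 ng/ml). The ChIP library came from wild type (WT) iTreg cells and a rabbit anti-Bach2 antibody made in house, with 1 input lysate as reference. RNA was sequenced from 3 WT and 3 Bach2KO iTreg libraries, and from 1 WT library each of fresh naive cells and of Th1 (IL-12 and anti-IL-4), Th2 (IL-4 and anti-IFN-γ) and Th17 (IL-6, TGF-β1 and both neutralizing antibodies) cultures of 3 days. The labels give no age and do not say which part of Bach2 the Bach2KO allele lacks. Nor do they state if each of the 3 libraries of a genotype is an animal or culture of its own. All p-values therefore measure only the spread between these libraries, which may be technical. A ChIP of Bach2KO cells is not among the data used here, and the single ChIP library has no replicate check.

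Bach2 is a basic leucine zipper protein of the CNC family that pairs with small Maf proteins and is known as a repressor in B and T lymphocytes. Such pairs read Maf recognition elements, whose core holds the AP-1 sequence bound by Jun and Fos proteins and overlaps the antioxidant response element (ARE) read by Nrf2 (Nfe2l2). Gene starts in mammals often lie in CpG islands, which are open in many cell types.

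Sequence under the start peaks is shown first for peaks of genes with the most tags or the largest RNA differences, where the letters TGAGTCA, the AP-1 type sequence, were found on either strand within 100 bp of the summit. All windows are from mm9, lie outside annotated exons, read in the direction of the gene, and have the match in capitals.

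Zfand5 (chr19:21347431-21347497, plus strand): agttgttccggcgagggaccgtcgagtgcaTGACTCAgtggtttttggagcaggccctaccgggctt
Psma3 (chr12:72075919-72075985, plus strand): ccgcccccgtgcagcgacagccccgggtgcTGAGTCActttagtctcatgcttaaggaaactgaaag
Midn (chr10:79611501-79611567, plus strand): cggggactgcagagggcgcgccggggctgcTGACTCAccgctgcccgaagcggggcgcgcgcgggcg
Tgif1 (chr17:71202193-71202259, minus strand): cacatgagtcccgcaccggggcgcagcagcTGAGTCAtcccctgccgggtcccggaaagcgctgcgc
Tigit (chr16:43664567-43664633, minus strand): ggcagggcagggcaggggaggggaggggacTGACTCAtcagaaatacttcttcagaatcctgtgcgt
Il10 (chr1:132917229-132917295, plus strand): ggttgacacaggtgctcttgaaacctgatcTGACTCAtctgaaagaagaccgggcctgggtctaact
Lilrb4 (chr10:51210294-51210360, plus strand): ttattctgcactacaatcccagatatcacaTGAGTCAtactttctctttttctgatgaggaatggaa

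The centre of the match lay 1 bp from the summit in Tgif1, 6 bp in Tigit, 16 bp in Zfand5, 19 bp in Il10, 36 bp in Midn, 41 bp in Psma3 and 47 bp in Lilrb4. The windows of Zfand5, Psma3, Midn and Tgif1 are intronic, as is that of Il10, while those of Tigit and Lilrb4 lie upstream of the start. The Tgif1 and Psma3 matches are preceded by the letters GC and so read as the longer sequence GCTGAGTCA, the part of a Maf recognition element that extends the AP-1 core. The peak of Ankrd55 holds the match in 4 copies, which stand in a short repeat upstream of the start and are all in the window of 200 bp on the summit that follows.

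Ankrd55 (chr13:113077401-113077600, plus strand): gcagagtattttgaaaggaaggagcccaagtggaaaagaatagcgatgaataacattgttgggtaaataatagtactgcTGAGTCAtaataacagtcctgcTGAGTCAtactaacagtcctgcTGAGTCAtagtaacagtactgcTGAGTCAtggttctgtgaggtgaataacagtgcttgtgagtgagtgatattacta

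Sites of genes of the oxidative stress response are shown in windows of 29 bases because their peaks were among the most enriched. Capitals mark TGAGTCA or the ARE core TGACNNNGC on either strand, and these genes were singled out after their values were seen. The sites of Gsr, Keap1 and Gclm overlap annotated untranslated exons, and those of Prdx1, Sqstm1 and Srxn1 overlap no exon.

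Gsr (chr8:34763953-34763981, plus strand): cgggcgcggtGCTTAGTCAcggcgacgct
Keap1 (chr9:21043274-21043302, minus strand): ggcgcgctgtGCTTAGTCAccgtgacccg
Gclm (chr3:121948560-121948588, plus strand): tgaggtttctGCTTAGTCAttgtcttcca
Prdx1 (chr4:116358063-116358091, plus strand): gggaaagcGCTGAGTCAtcccccgtaggc
Sqstm1 (chr11:50024566-50024594, minus strand): ggacgacactGCTGAGTCAtaggcaggcc
Srxn1 (chr2:151931148-151931176, plus strand): tcggagggccTGAGTCAccacgctgtgcg

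Gsr, Keap1 and Gclm carry the same 9 letters, GCTTAGTCA, which hold the ARE core but not the AP-1 letters, whereas Prdx1 and Sqstm1 share GCTGAGTCA, which holds both. Other start peaks had neither the AP-1 letters in the whole peak nor an ARE core at the summit. The summit windows of Cltc, which had the most tags, and of Fads2, whose RNA rose most, are shown for comparison with the sequences above, beside Amigo2, whose match is an ARE core alone.

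Cltc (chr11:86571172-86571232, minus strand): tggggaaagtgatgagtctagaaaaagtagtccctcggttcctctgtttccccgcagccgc
Fads2 (chr19:10176672-10176732, minus strand): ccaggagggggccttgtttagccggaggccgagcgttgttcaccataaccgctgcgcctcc
Amigo2 (chr15:97078581-97078649, minus strand): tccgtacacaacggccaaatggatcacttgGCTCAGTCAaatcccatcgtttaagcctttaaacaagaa

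A match is a description of the letters, and the absence of a match says only that these letters are not in that window.

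Within the limit of 1000 bp that chose them, positions of start peaks were as follows. The midpoint lay within 250 bp of the nearest start in 1062 peaks (51.7%), with a median distance of 239 bp, and 1523 peaks (74.2%) covered a start. Upstream and downstream sides were about equally filled, with 1025 midpoints (49.9%) upstream. The summit, the position of highest tag density, lay upstream of the start in 994 peaks, in an intron in 499, in an untranslated region in 356, in coding sequence in 99, in an exon of a non-coding transcript in 86 and beyond the end of a short gene in 19. A second start within 1000 bp was found for 194 peaks (9.45%), and 69 genes had 2 or more start peaks.

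**Figure D1:**
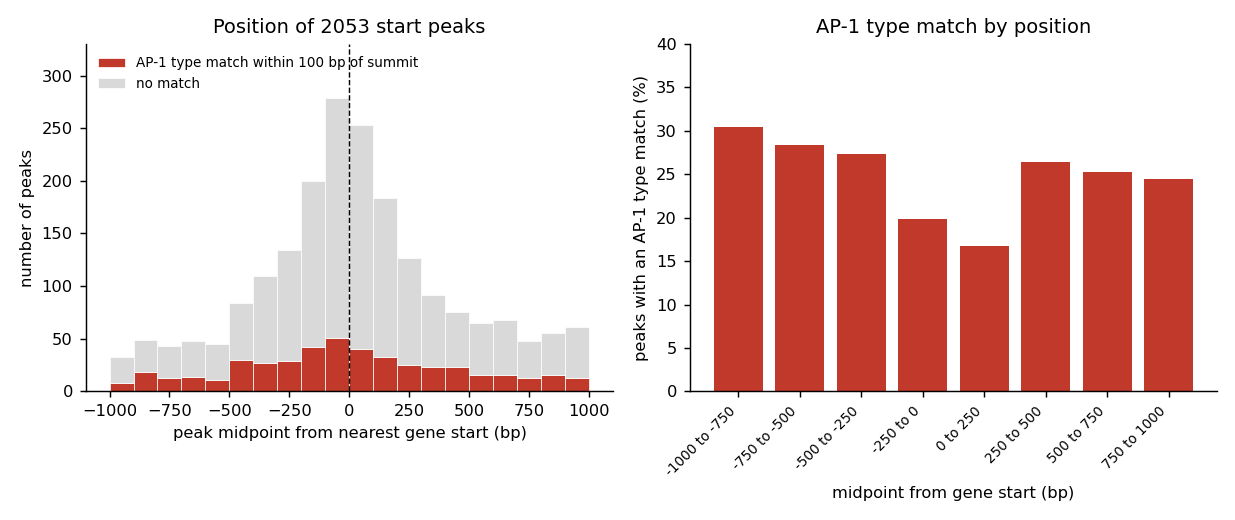
Left, number of start peaks by the distance of the midpoint from the nearest gene start in bp, negative upstream, split by an AP-1 type match within 100 bp of the summit. Right, percent of start peaks with such a match by distance, which was 16.7% from 0 to 250 bp downstream and 30.5% from -1000 to -750 bp.

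The distance limit of 1000 bp runs through a continuous range of positions. Just inside it were the peaks of Lair1 (999.5 bp, 12 tags) and Nfe2l2 (995.5 bp, 445 tags), and just outside it those of Satb1 (1000.5 bp, 25 tags) and Npepps (1001.5 bp, 99 tags). When any annotated transcript start counted in place of the end of the locus, 3154 peaks (14.0%) qualified.

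Start peaks held more tags than other peaks but a lower fold enrichment over the local background. The median start peak had 58 tags (quartiles 34 and 98) over 891 bp, against 26 tags over 571 bp in gene bodies and 27 tags over 575 bp between genes. Per kb of peak this was 61.1, 46.2 and 47.0 tags. The median fold enrichment was 9.67 at starts, 13.0 in gene bodies and 13.3 between genes, and the deposited score (−log10 p, multiplied by 10) had medians of 114, 102 and 107. The median FDR was 0.36% at starts and 0.59% and 0.46% elsewhere. Peaks of 1 library share their source, so these are descriptions with no test.

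Start peaks ranked high by one measure and low by the other. They made up 37 of the 100 peaks with the most tags but 3 of the 100 with the highest fold enrichment, and 249 and 51 of the first 1000. Tag number and fold enrichment are the authors' values for each peak.

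**Figure D2:**
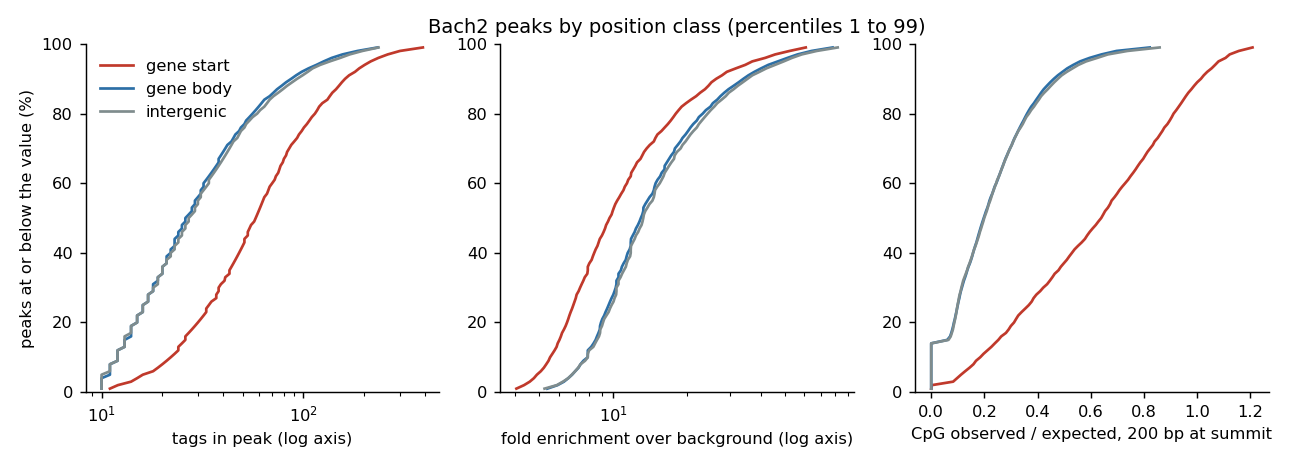
Percent of peaks at or below each value (percentiles 1 to 99) for tags per peak, fold enrichment over background (both log axes) and the CpG observed to expected ratio in 200 bp at the summit, for start, gene body and intergenic peaks. The curve of start peaks lies to the right for tags and CpG and to the left for fold enrichment, with medians of 58 tags, 9.67-fold and 0.640.

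The base composition under start peaks was close to that of gene starts. In 200 bp at the summit the median GC content was 56% at start peaks and 47% in both other classes, against 60% in windows of the same length centred on all gene starts. The median CpG observed to expected ratio was 0.640, compared with 0.198 in gene bodies and 0.199 between genes, and 0.642 at all gene starts. Start peaks farther from the start had less CpG, with a median ratio of 0.323 from -1000 to -750 bp and 0.788 from 0 to 250 bp.

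The AP-1 type sequence TGAGTCA, searched on both strands in 200 bp at the summit, was present in 461 start peaks, or 22.5% (exact 95% binomial interval 20.7 to 24.3%, which covers counting only). It was present in 38.7% of gene body peaks, 41.7% of intergenic peaks and 2.54% of windows at all gene starts. The longer GCTGAGTCA, which contains TGAGTCA and is also an ARE core, was found in 7.36% of start peaks, 11.3 and 12.6% of the other classes and 0.169% of all gene starts. Start peaks thus held the AP-1 letters less often than distal peaks and more often than gene starts in general. This was not tested, as the peaks share their source. Windows of peaks are centred on the summit and those of gene starts on the start.

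The ARE core TGACNNNGC, a search added after the data were seen, gave another order. It was found in 36.2% of start peaks, 33.5% of gene body peaks, 33.1% of intergenic peaks and 9.44% of all gene starts. Either sequence was present in 1014 start peaks (49.4%), in 57.1 and 57.8% of the other classes and in 11.7% of all gene starts.

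The shares of other short sequences differed to varying degrees between the classes. GGGCGG (GC box) was in 31.8% of start peaks, 4.73 and 5.27% of the other classes and 41.6% of all gene starts. GCATGCGC (NRF1) was in 1.85% of start peaks against 0.294 and 0.324%, and TGACGTCA (CRE) in 1.17% against 0.312 and 0.460%. At all gene starts these 2 were in 2.54% and 1.98%. TGTGGTTT (RUNX) was rarer at starts, with 2.00% against 4.54 and 4.78%, and 0.896% of all gene starts. GGAAGT (ETS) was in 19.9, 19.8 and 19.7% of the 3 classes and 18.0% of all gene starts. CCAAT was in 18.7, 18.0 and 19.1%, against 26.9% of all gene starts, and CACGTG (E-box) in 5.89, 3.62 and 3.14%, against 5.41%.

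Where AP-1 letters were present, they stood near the summit. Among 644 start peaks (31.4%) with TGAGTCA anywhere in the peak, the nearest match lay a median of 41 bp from the summit and within 50 bp in 364 (56.5%). In gene body and intergenic peaks the median distance was 30 bp. A single match was found in 533 start peaks, 2 in 99 and 3 or more in 12, with median tags of 72, 111 and 147.5 against 53 in the 1409 peaks without one. The most copies, 4 each, were in the peaks of Bach1, a CNC protein close to Bach2, and of Ankrd55. Matches were counted over the whole peak, and these peaks span 2134 and 2395 bp, against a median of 891 bp. The part of peak length in the tags was not tested.

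**Figure D3:**
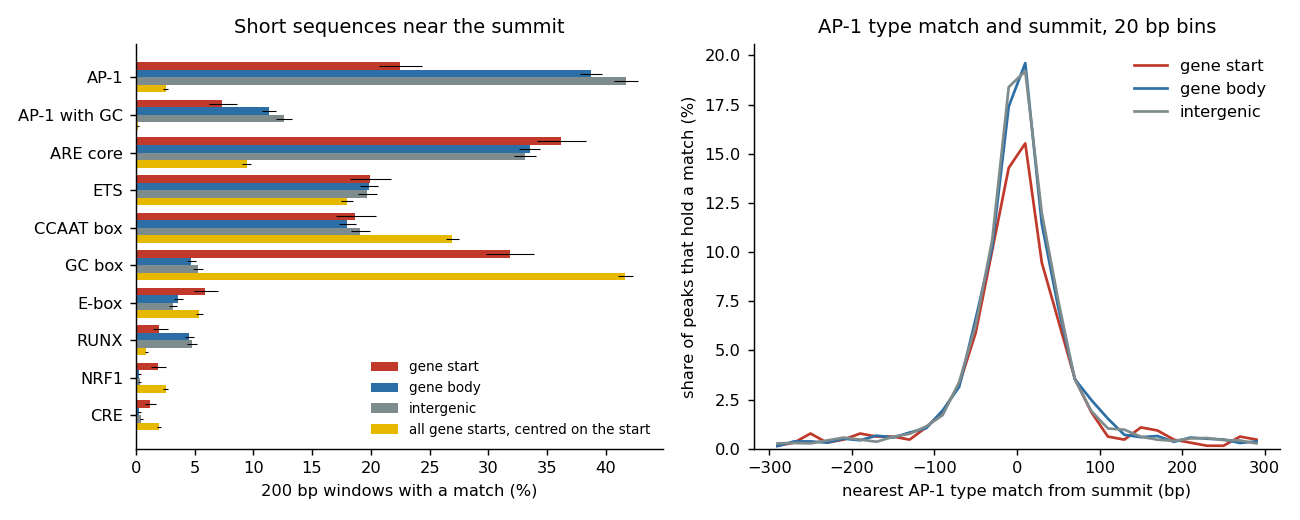
Left, percent of 200 bp windows with each short sequence in start, gene body and intergenic peaks and at all gene starts, with exact 95% binomial intervals as bars. Right, distance in bp of the nearest AP-1 type match from the summit in 20 bp bins, as percent of peaks that hold a match, where all 3 classes have their maximum at the summit.

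Start peaks with an AP-1 type match were the more enriched. The 461 with a match had medians of 75 tags and 14.4-fold enrichment, and the 1592 without one had 55 tags and 8.89-fold. By quartile of fold enrichment, from lowest to highest, 9.34, 17.0, 23.4 and 40.2% held the match, and either the match or an ARE core was in 29.6, 42.5, 54.0 and 71.5%. The 12 start peaks with the highest fold enrichment, named after their values were seen, included those of Gsr (103-fold), Blmh (95.5-fold), Slc7a11 (84.8-fold) and Mir155 (74.5-fold). Of the 12, 11 held either sequence at the summit, and the peak of Slc7a11 was the one with neither. By tags, the highest quartile stood out with 35.9% AP-1 matches, against 20.4, 15.4 and 18.1% in the other 3.

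Genes with a start peak were mostly expressed. RNA values are FPKM as the authors made them, which scale fragments to the length of the transcript and the size of the library. Between 77.5% (naive) and 84.5% (Bach2KO replicate 3) of the 2184 genes were at 1 FPKM or more, against 42.5 to 47.2% of all 22509 genes. Their median level ran from 8.79 FPKM in naive cells to 12.5 FPKM in Bach2KO replicate 2, and was between 11.03 and 11.16 FPKM in the 3 WT iTreg libraries. The share at 1 FPKM or more in the single Th1, Th2 and Th17 libraries was 83.5, 82.5 and 83.5%, and 82.1 to 82.3% in WT iTreg libraries.

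The share of genes with a start peak was larger at higher levels of the gene in WT iTreg cells. It was 2.63% of genes under 0.5 FPKM, 12.9% from 0.5 to 5, 17.6% from 5 to 20, 19.8% from 20 to 100 and 20.4% at 100 or more, against 9.70% of all genes. The AP-1 type match went the other way, from 32.5% of genes with a start peak under 0.5 FPKM to 17.2% from 20 to 100 FPKM and 19.3% at 100 FPKM or more. Across genes, which are not independent replicates, the rank correlation of tags with WT level was 0.227 and that of fold enrichment with WT level was -0.0941 (n = 2184).

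The RNA libraries were checked first. Bach2 itself has no start peak and fell in Bach2KO libraries, from 17.9, 17.7 and 17.2 FPKM in WT to 3.91, 3.39 and 4.12 FPKM (limma, log2 difference -2.08, SE 0.07, adjusted p = 4.4e-06). Foxp3, which defines regulatory T cells, was at 66.7 to 81.1 FPKM in WT iTreg and at most 1.35 FPKM in the 4 other conditions. Summed FPKM ran from 432450 to 437849 in WT and from 545183 to 553892 in Bach2KO iTreg libraries. The 12 B cell markers summed to 77.6, 13.4 and 43.6 FPKM in WT and 22.5, 15.0 and 21.1 FPKM in Bach2KO, and 10 dendritic cell and MHC class II genes to 248, 29.3 and 122 against 189, 159 and 167 FPKM, with Itgax and Siglech under 0.05 FPKM in all 6. The 11 myeloid markers summed to 6.93 to 8.05 FPKM in WT and 0.314 to 0.720 in Bach2KO, and 6 markers of CD8, NK and γδ T cells to 4.52 to 5.47 and 11.1 to 12.1 FPKM. Of these, the myeloid Elane, Lyz1, Mpo, Csf1r, S100a8 and S100a9 were under 0.05 FPKM in all 6 iTreg libraries. So were Sox13, Klrb1c and Klra8 of the other list. The part of these cells in the differences below was not tested, and in bulk RNA fewer cells of a type and less RNA per cell cannot be told apart.

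Genes with a start peak differed between Bach2KO and WT iTreg cells about as often as other genes. Of the 2184, 13 had a failed estimate, 264 stayed under a mean of 0.5 FPKM, and 1907 were tested with limma on log2(FPKM + 0.5), a scale that understates changes of low genes. At an adjusted p under 0.05, 1459 (76.5%) were called, against 74.6% of all 11403 tested genes. They were higher in Bach2KO in 845 cases (44.3%, against 41.1% of all tested) and lower in 614 (32.2%, against 33.6%). With at least a 2-fold difference, 319 (16.7%, against 14.7%) were higher and 137 (7.18%, against 7.46%) lower. The median log2 difference was 0.11, and 0.07 over all tested genes.

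The balance of higher and lower calls depended on the scale, as it did for all genes. Higher genes were 57.9% of calls with the authors' scaling, 46.5% after quantile normalization and 40.7% after each library was set to the same sum over loci that span 300 bp or more. For all tested genes these shares were 55.0, 43.1 and 37.8%. The alternatives moved the median of all genes by -0.17 and -0.25 on the log2 scale, so small differences have no certain direction. Of the tested genes, 47 had a WT mean under 0.5 FPKM and passed the filter through Bach2KO only, and 26 the reverse.

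Neither the tags nor the AP-1 match of the start peak separated the genes far. Genes whose start peak had an AP-1 type match (n = 404) were called in 74.8%, with 20.3% at least 2-fold higher and 8.42% at least 2-fold lower. Without a match (n = 1503) these were 77.0, 15.8 and 6.85%. In the highest quartile of tags (n = 542), 81.2% were called and 50.0% were higher, with a median log2 difference of 0.20, against medians of 0.07 to 0.08 in the other 3 quartiles. Over all 1907 genes the rank correlation of tags with the log2 difference was 0.0416, and both splits were chosen after the data were seen.

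The start peak with the most tags was that of Cltc, the clathrin heavy chain, with 1052 tags (chr11:86570205-86572503, 38.7-fold enrichment, midpoint at -360 bp). Cltc was at 34.3, 33.2 and 33.8 FPKM in WT and 69.2, 69.9 and 69.1 FPKM in Bach2KO iTreg libraries (log2 difference 1.03, SE 0.03, adjusted p = 3.3e-06). Its level was 29.4 FPKM in naive cells and 65.3 to 69.4 FPKM in the 3 helper cultures.

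Next by tags was 2210403K04Rik, a transcript that overlaps Mir22, with 738. Zfand5, a ubiquitin-binding zinc finger protein, had 706, and Ubb, a polyubiquitin gene, had 477. Psma3, an α subunit of the proteasome core, had 520, and Psmd1, a subunit of its regulatory particle, had 506. Midn, a nuclear protein that targets others to the proteasome, had 497, and the non-coding Gm14005 had 485. Rheb, the GTPase that activates mTORC1, also had 485, Fam36a (Cox20), which helps to assemble cytochrome c oxidase, had 468 and Tgif1, a corepressor of TGF-β signalling, had 464.

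Of the 12 genes with the most tags at their start peak, 1 of which is not named, 9 were higher and 3 lower in Bach2KO at an adjusted p under 0.05, where 41.1% of all tested genes were higher and 33.6% lower. Gm14005 rose most, from 1.02, 0.771 and 0.809 FPKM to 22.1, 18.2 and 21.7 FPKM (log2 difference 3.95, SE 0.11). Tgif1 fell most, from 36.9, 35.2 and 39.6 FPKM to 15.1, 17.1 and 14.8 FPKM (log2 difference -1.22, SE 0.07). Midn fell from 34.8 to 37.2 FPKM in WT to 25.9 to 27.2 FPKM, and Fam36a from 60.5 to 66.9 FPKM in WT to 47.6 to 52.8 FPKM. The rises of 2210403K04Rik and Zfand5 were small, with log2 differences of 0.41 and 0.43. After setting equal sums they were 0.17 and 0.17 and no longer called, and after quantile normalization that of 2210403K04Rik was not called either (0.26).

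The proteasome and protein folding list had start peaks at 17 of its 27 genes (63.0%), against 19.8% of all genes at 20 to 100 FPKM. All 17 were higher in Bach2KO, with a median log2 difference of 0.95, as were the 10 genes of the list without a start peak. Of all tested genes, 41.1% were higher. After quantile normalization 16 of the 17 were called higher, without Dnaja1, and after setting equal sums 15, without Psmd11 and Dnaja1. Dnaja1 (log2 difference 0.29) also lost its call with the replicate block and when any 1 library other than Bach2KO replicate 3 was left out. The part of the list with a start peak included 8 proteasome subunits (Psma1, Psma3, Psmb1, Psmc4, Psmd1, Psmd3, Psmd11 and Psmd14), the chaperones Hspa8, Hspa9, Hspd1, Hspe1, Hsp90ab1, Dnaja1 and Cct3, and Ubb.

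Psmd1 was at 20.0, 19.0 and 19.8 FPKM in WT and rose to 41.2, 48.8 and 38.6 FPKM in Bach2KO (log2 difference 1.10, SE 0.09, adjusted p = 8.5e-05). Psma3 was at 20.8 to 21.8 and 38.6 to 45.3 FPKM (0.94), and Psmd14, the deubiquitinase of the regulatory particle, at 25.6 to 29.6 and 55.6 to 66.3 FPKM (1.10). Hsp90ab1, a cytosolic chaperone with 2 start peaks, went from 226 to 282 FPKM to 609 to 713 FPKM (1.35). The WT and Bach2KO values of these 4 genes did not overlap, which was also so for 79.4% of all tested genes and 80.6% of those with a start peak. Hspd1 and Hspe1, which encode the mitochondrial chaperonin and its partner, share 1 start peak of 121 tags, and their log2 differences were 1.24 and 0.95.

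The oxidative stress and haem list had start peaks at 13 of 20 genes (65.0%), against 9.70% of all genes. By level in WT iTreg cells, the share of all genes was 12.9 to 20.4% from 0.5 FPKM up. The 14 peaks of the list had a median of 184 tags and 37.9-fold enrichment. Of the 13 genes, 9 were higher and 3 lower in Bach2KO, and 1, Osgin1, was not called, with a median log2 difference of 1.28. Over the whole list 13 of 20 were higher and 4 lower, against 41.1% higher and 33.6% lower of all tested genes. The counts for start peaks were the same under both other scalings, with medians of 1.14 and 1.02. At the summit, 10 of the 14 peaks held TGAGTCA or the ARE core.

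Among the 9 were genes of thiol metabolism. Slc7a11, the cystine transporter, was at 0.613, 0.615 and 0.716 FPKM in WT and 4.50, 5.12 and 4.59 FPKM in Bach2KO (log2 difference 2.19, SE 0.08, adjusted p = 5.4e-06). Txn1, thioredoxin, rose from 45.1, 41.6 and 49.5 FPKM to 200, 222 and 190 FPKM (2.15). Neither the peak of Slc7a11 nor that of Txn1 had AP-1 or ARE letters at the summit. Prdx1, a peroxiredoxin, rose from 43.5 to 50.6 FPKM to 117 to 145 FPKM (1.44).

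Gsr, glutathione reductase, had the start peak of highest fold enrichment, 103-fold with 231 tags, and a weaker one upstream. Its level was 5.38, 6.67 and 6.00 FPKM in WT and 14.1, 17.7 and 14.2 FPKM in Bach2KO (1.28, SE 0.12). Abcc1, an exporter of glutathione conjugates, rose by 1.53. Srxn1 and Nqo1, both Nrf2 targets, were under 0.6 FPKM in all WT libraries and at 1.63 to 2.21 and 1.88 to 3.20 FPKM in Bach2KO, and passed the filter through Bach2KO only. Fth1, ferritin heavy chain, and Keap1, the inhibitor of Nrf2, rose by 0.54 and 0.64.

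Strong peaks also stood at the genes of this list that fell. Gclm, the modifier subunit of glutamate-cysteine ligase, had 364 tags and 58.8-fold enrichment, and was at 31.9, 32.8 and 30.8 FPKM in WT and 26.2, 28.6 and 24.0 FPKM in Bach2KO (log2 difference -0.28, SE 0.07, adjusted p = 0.012). Sqstm1, the autophagy receptor p62, fell by 0.33. Ftl1, ferritin light chain, fell by 0.12 on the log2 scale and lost its call with the replicate block and when any 1 library other than Bach2KO replicate 2 was left out. Osgin1 was called lower when Bach2KO replicate 3 was left out.

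Genes of the AP-1, CNC and Maf factors themselves had start peaks in 7 of 23 cases (30.4%, against 9.70% of all genes), and moved both ways. Over the whole list 10 of 17 tested were higher and 5 lower, against 41.1% higher and 33.6% lower of all tested genes. Bach1 (324 tags) fell by 0.65 and Nfe2l2 (445 tags) by 0.48 on the log2 scale. Maf, a large Maf protein of Th17 and regulatory cells, fell from 40.7, 49.1 and 40.5 FPKM to 14.3, 11.8 and 14.4 FPKM (limma, -1.65, adjusted p = 3.7e-05), and was at 159 FPKM in the Th17 library. Maff, Jun and Fos rose by 1.33, 1.11 and 1.98, and Fos was at 219 FPKM in naive cells but at most 3.05 FPKM in Bach2KO iTreg cells, through which alone it passed the filter. Mafg (331 tags), a small Maf partner, had 11.3 ± 1.06 FPKM in WT, compared with 11.9 ± 0.44 FPKM in Bach2KO (SD, n = 3), and was not called.

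Naive and memory T cell genes with a start peak were mostly lower in Bach2KO, 8 of 10, with 1 higher (Bcl2) and 1 not called (Il7r), and a median log2 difference of -1.43. Over the whole list, with or without a start peak, 23 of 29 were lower (median -1.34), against 33.6% of all tested genes. The counts of genes with a start peak were the same under both other scalings. Il6ra, the IL-6 receptor chain, fell from 105, 103 and 103 FPKM to 23.8, 22.3 and 21.4 FPKM (-2.18, SE 0.05). Ccr7, the lymph node chemokine receptor, fell from 447 to 460 FPKM to 173 to 185 FPKM (-1.34). Itga6, whose peak had 73.6-fold enrichment, fell by 1.60, and S1pr1, the receptor for exit from lymph nodes, by 1.81. Il7r was at 67.3 to 78.0 FPKM in WT and 68.6 to 116 FPKM in Bach2KO.

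Effector, cytotoxic and homing genes with a start peak, 8 of 30, were all higher in Bach2KO, with a median of 2.04, and 7 of the 8 under either other scaling, where Itgal was not called. Over the whole list 19 of 25 tested were higher and 5 lower (median 1.81), against 41.1% higher and 33.6% lower of all tested genes. Vim, vimentin, was at 335, 384 and 386 FPKM in WT and 1381, 1584 and 1486 FPKM in Bach2KO (2.01, SE 0.08, adjusted p = 6.8e-06). Cd44, an adhesion receptor of activated cells, rose from 14.7 to 16.3 FPKM to 49.9 to 52.7 FPKM (1.67). S100a4 rose by 2.75, and Gzma, a granule protease, was at most 0.094 FPKM in WT and at 4.24, 0.726 and 5.75 FPKM in Bach2KO, so that it passed the filter through Bach2KO only.

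The regulatory T cell list had start peaks at 8 of 27 genes (29.6%, against 9.70% of all genes), of which 5 were higher and 3 lower. Over the whole list 17 of 25 tested were higher and 5 lower, against 41.1% higher and 33.6% lower of all tested genes. Foxp3 carried 2 weak peaks, the larger with 26 tags at -712 bp, and fell from 69.6, 66.7 and 81.1 FPKM to 7.68, 19.7 and 5.81 FPKM (-2.84, SE 0.42, adjusted p = 0.0012). Nt5e (CD73) fell by 1.29 and Ikzf4 by 1.47. Tigit, Il2ra, Lrrc32 and Capg rose by 4.54, 1.98, 2.18 and 1.19, and Folr4 by 0.48, a call lost under both other scalings. Il2ra, the IL-2 receptor α chain, was at 72.2, 68.0 and 95.5 FPKM in WT and 288, 380 and 268 FPKM in Bach2KO, with a peak of 161 tags and 48.0-fold enrichment.

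Start peaks were at 16.7, 25 and 33.3% of the Th1, Th2 and Th17 lists, against 9.70% of all genes. By level in WT iTreg cells, the share was 12.9 to 20.4% at the levels from 0.5 FPKM up. The Th1 list had 4 of 24, of which Il12rb1 and Il18rap rose by 3.61 and 2.09. Havcr2 (TIM-3) was at most 0.0251 FPKM in WT and at 4.66 to 5.03 FPKM in Bach2KO, so it passed the filter through Bach2KO only and its log2 difference depends on the pseudocount, and Fasl (0.613 to 1.08 FPKM in WT, 0.835 to 1.34 FPKM in Bach2KO) was not called. Il12rb1, an IL-12 receptor chain, went from 2.50, 2.37 and 3.34 FPKM to 37.3, 42.4 and 36.4 FPKM. The Th2 list had 6 of 24, with Ccr4, Crem and Gata3 higher by 2.78, 2.22 and 0.87, Maf lower, and Il31 not tested. Il10 was also called higher, and passed the filter through Bach2KO only. Gata3, the Th2 master regulator, was at 8.75 to 9.77 FPKM in WT, 14.1 to 19.1 FPKM in Bach2KO and 102 FPKM in the Th2 library. The Th17 list had 7 of 21, with Irf4, Lrrc32, Ahr and Socs3 higher, Il6ra and Ccr6 lower and Il23r not tested. Over the whole lists, with or without a start peak, 19 of 23 tested Th1, 15 of 18 Th2 and 10 of 17 Th17 genes were higher. Of all tested genes, 41.1% were higher. Socs3 lost its call under both other scalings, with the replicate block and when any 1 library other than Bach2KO replicate 2 was left out.

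Signalling genes with a start peak were called in both directions. Of 14 (of 36) T cell receptor and costimulation genes with a start peak, 9 were higher and 2 (Cd5 and Ptpn22) lower, with a median of 0.53, and 8 and 2 under both other scalings. Over the whole list 15 of 36 were higher and 12 lower. Cish, a feedback inhibitor of cytokine signalling, rose from 27.4, 31.8 and 31.7 FPKM to 210, 232 and 193 FPKM (2.78, SE 0.09). Of 8 (of 32) cytokine and TGF-β signalling genes, 5 were higher and 2 lower, with 1 untested (Jak2). Of these, 4 were higher after quantile normalization and 3 after setting equal sums, and over the whole list 13 of 31 tested were higher and 14 lower. Socs1, another such inhibitor, rose from 14.8 to 16.1 FPKM to 141 to 181 FPKM (3.33), and Tgfbr2, the TGF-β receptor chain, fell from 122 to 140 FPKM to 62.4 to 68.0 FPKM (-1.01). Of 7 (of 42) transcription regulators, 5 were higher, Tox was lower by 1.29 and Zeb1 was not called, though it was lower under both other scalings. Over that whole list 22 of 40 tested were higher and 10 lower, against 41.1% and 33.6% of all tested genes. Irf4, needed for effector differentiation, rose from 13.2, 12.8 and 17.6 FPKM to 91.0, 89.9 and 81.6 FPKM (2.56).

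Smaller groups were mixed. Of 5 (of 22) survival and death genes, Bcl2l1, Bcl2 and Birc3 rose by 2.48, 0.92 and 0.69 and Cflar fell by 0.52. Of 3 (of 27) proliferation genes, Mki67 and Rrm2 rose by 3.61 and 3.70, and Cdkn1b, a brake on the cell cycle, fell by 0.84, while 25 of 26 tested over that list were higher. Of 5 (of 20) interferon response genes, 3 were higher and Ifit2 lower. Of 4 (of 28) chromatin genes, Ezh2 and Tet2 rose by 2.21 and 0.41, Arid1a fell by 0.26, and 1 was not called. Over the whole lists, 11 of 22 survival, 8 of 18 interferon and 14 of 26 chromatin genes tested were higher. On these lists 3, 3 and 8 were lower, where 41.1% of all tested genes were higher and 33.6% lower.

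RNA processing genes (6 of 27) were higher in 4 cases and lower in 2, and cytosolic ribosomal protein genes (6 of 28) were higher in 5, with medians of 0.36 and 0.41, but these counts changed with the scaling. Over the whole lists 20 of 27 and 20 of 28 were higher, and 6 and 2 were lower, against 41.1% higher and 33.6% lower of all tested genes. Start peaks were at 22.2 and 21.4% of these lists, against 9.70% of all genes. By level in WT iTreg cells, the share of all genes was 12.9 to 20.4% from 0.5 FPKM up. After quantile normalization 2 of the 6 processing genes were higher and 2 of the 6 ribosomal genes were, with 1 ribosomal gene lower. Of markers of other cells, start peaks were found at 0 of 12 B cell, 0 of 11 myeloid, 0 of 6 CD8, NK and γδ T cell and 1 of 10 dendritic cell genes. The last is Zbtb46, at 0.098 to 0.36 FPKM in WT and 2.45 to 3.52 FPKM in Bach2KO, which passed the filter through Bach2KO only. Of 8 CD4 T cell markers, Cd4 and Cd28 had a start peak and neither was called unless Bach2KO replicate 2 was left out.

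**Figure D4:**
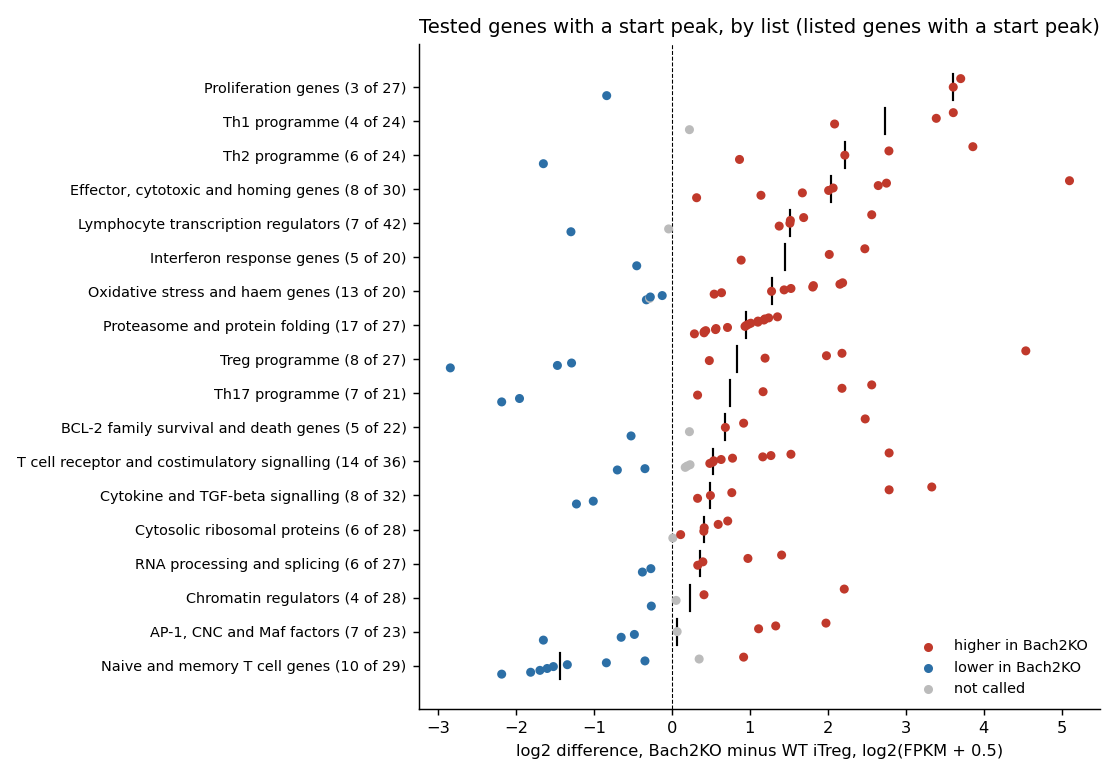
Log2 difference of Bach2KO minus WT iTreg, on log2(FPKM + 0.5), of each tested gene with a start peak, by list, red when higher, blue when lower and grey when not called. Vertical bars are medians, from -1.43 for naive and memory genes to 3.61 for the proliferation genes, and the numbers give listed genes with a start peak.

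The 10 largest rises, taken without microRNA, snoRNA and predicted genes, stood at peaks of 10 to 148 tags. Gm14005, described above with 485 tags, rose more than the last 3 of them but is a predicted gene. Of the 10, Fads2, Ttc39c and Il10 had a WT mean under 0.5 FPKM and passed the filter through Bach2KO only. Fads2, a fatty acid desaturase, had a peak of 48 tags and was at 0.388, 0.420 and 0.118 FPKM in WT and 29.9, 26.1 and 36.3 FPKM in Bach2KO (log2 difference 5.28, SE 0.19, adjusted p = 4.6e-06). It was listed at 0 in naive cells and at 15.8 to 36.0 FPKM in the helper cultures. S100a6, a calcium-binding protein, rose from 4.18, 6.45 and 6.65 FPKM to 190, 237 and 206 FPKM (5.10), with a peak of 16 tags and an FDR of 6.13%.

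Lilrb4 and Tigit, both inhibitory receptors, and Il10 were also among the 10. Lilrb4 rose from 1.33, 0.240 and 0.635 FPKM to 30.3, 47.0 and 23.9 FPKM (4.83, SE 0.39) with a peak of 10 tags, the lowest number any peak had. Tigit rose from 0.792, 0.595 and 0.528 FPKM to 29.0, 19.0 and 31.2 FPKM (4.54, SE 0.20), with 148 tags and 60.5-fold enrichment. Il10, the anti-inflammatory cytokine, was at most 0.056 FPKM in WT and at 9.79, 2.61 and 13.5 FPKM in Bach2KO (3.86, SE 0.55, adjusted p = 0.00097), with 14 tags. Its Bach2KO values were far apart, and its SE was the largest among these 10 genes.

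The others were Ttc39c (4.54), whose locus overlaps Mir1948, Tnp2 (4.30), Fam71b (4.03), Uhrf1 (3.85) and Pros1 (3.80). Tnp2, a spermatid DNA packaging gene, was at 21.9 FPKM in all 3 Bach2KO libraries, and the summit of its peak lay beyond the end of the short gene. Uhrf1, which maintains DNA methylation, rose from 4.84 to 6.77 FPKM to 80.2 to 96.9 FPKM, and Pros1, protein S, was at 126 FPKM in the Th2 library.

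The largest falls were Amigo2, Bambi-ps1, Ankrd55, Dtx4 and Foxp3. Amigo2, an adhesion molecule, fell from 17.0, 13.9 and 13.6 FPKM to 0.695, 1.23 and 0.680 FPKM (limma, -3.50, SE 0.18, adjusted p = 1.4e-05). Ankrd55, with the 4 AP-1 type matches shown above and 303 tags at 68.1-fold, fell from 5.82, 6.41 and 6.36 FPKM to 0.222, 0.307 and 0.410 FPKM (-3.05, SE 0.11). Bambi-ps1 is a pseudogene and fell by 3.15, but its reads may be shared with the parent gene. Dtx4, a ubiquitin ligase of the Deltex family, fell by 2.88.

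Cd101, Cxcr5, Ramp1, Il6ra and Arsb completed the 10 largest falls. Cd101 fell from 60.3, 63.7 and 56.2 FPKM to 10.5, 9.77 and 9.42 FPKM (-2.54) and was at 68.7 FPKM in the Th17 library but at most 3.06 FPKM in naive, Th1 and Th2 cells. Cxcr5, the follicle homing receptor, fell by 2.36, Ramp1, a subunit of the CGRP receptor, by 2.35, and Arsb, a lysosomal sulfatase, by 2.15. Of the 10 largest falls only Ankrd55 and Il6ra had an AP-1 type match at the summit of the named peak, and of the 10 largest rises 4 did.

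**Figure D5:**
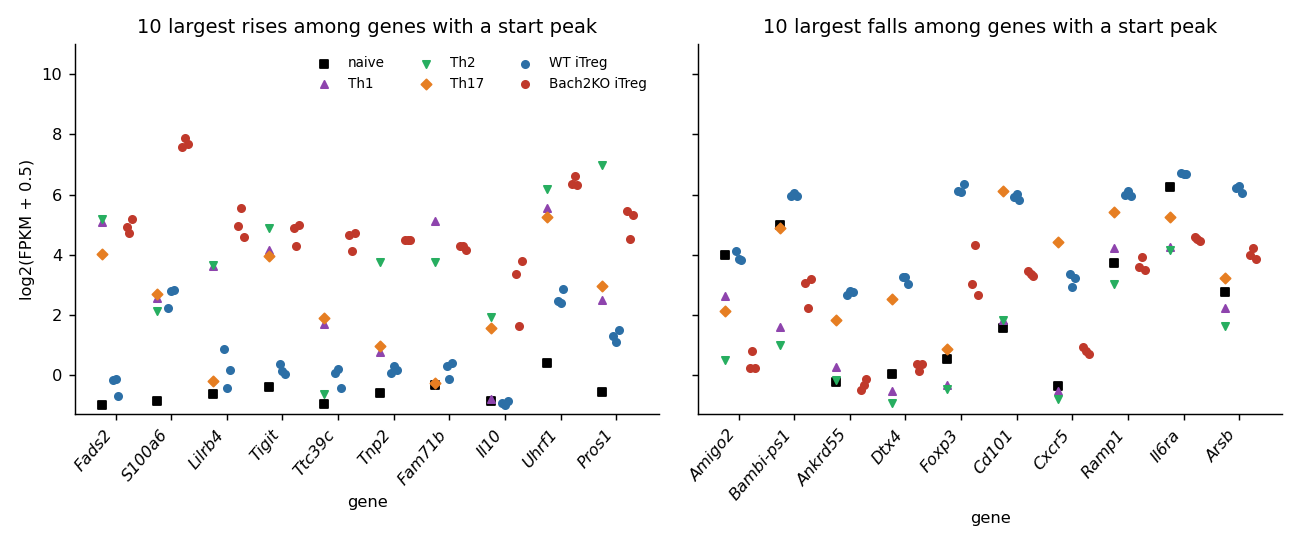
Log2(FPKM + 0.5) of the 10 largest rises and the 10 largest falls among genes with a start peak, 1 point per library. The 3 Bach2KO and 3 WT iTreg points do not overlap for any of these genes, which the rule for naming them required, and the 4 other conditions have 1 point each.

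Of the 5 pairs of genes described that share 1 start peak, 2 had both genes called, each pair in 1 direction. The peak between Mllt11 and Cdc42se1 (375 tags) had both genes lower, by 0.65 and 0.39, and that between Rhbdd3 and Ewsr1 (316 tags) had both higher, by 0.67 and 0.48. At the peak of 2310028H24Rik and Dnaic1 (307 tags), 2310028H24Rik fell by 0.23 (limma, adjusted p = 0.043), while Dnaic1 was listed at 0 in all 10 libraries. The call of 2310028H24Rik was lost with the replicate block (adjusted p = 0.111) and when any 1 library other than WT replicate 1 was left out (0.0502 to 0.127). Gabarapl1, of the autophagy machinery, rose by 0.46 beside 1700101I11Rik, at most 0.17 FPKM. Zfp91 (23.9 ± 0.47 FPKM in WT, 24.5 ± 0.75 FPKM in Bach2KO, SD, n = 3) was not called, though it was lower under both other scalings, and U05342, listed with the same start, overlaps it, so their reads may have been split.

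Genes with 2 or more start peaks and the most tags were BC005537, Gadd45g, Gsr, Ubqln1 and Hsp90ab1. Gadd45g, a stress-induced regulator, rose from 3.65, 3.68 and 3.70 FPKM to 37.2, 62.3 and 28.7 FPKM (limma, 3.30, SE 0.27, adjusted p = 8.5e-05). BC005537 fell by 0.31 and Ubqln1 rose by 0.25. The direction for Ubqln1 turned to -0.02 after setting equal sums.

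At the ends of the expression range, start peaks stood at both very high and silent genes. Tpt1 (2315 ± 43.7 FPKM in WT), Rps18 (1846 ± 28.6), Cd52 (1471 ± 37.7) and Rpl39 (1267 ± 22.4) were the highest in WT iTreg cells (mean ± SD, n = 3) apart from Mir142. Mir142 ranged from 4188 to 10207 FPKM in WT libraries, and FPKM of so short a locus are uncertain. Cd52 rose by 0.44 and Rpl39 by 0.31, a call that Rpl39 lost under both other scalings, and Tpt1 and Rps18 were not called but were lower after setting equal sums. Reads of ribosomal, ubiquitin, ferritin and chaperone genes may also be shared with near-identical copies, and the labels state that unique reads only were mapped.

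Start peaks with many tags also stood at genes with little or no RNA listed. Of the 2184 genes, 190 were under 0.5 FPKM in all 10 libraries, and 31 were listed at 0 in all. Those with the most tags were Dnaic1 (307), U05342 (280), 1700101I11Rik (275), D030047H15Rik (259) and Hspb7 (257), a small heat shock protein of muscle. The peak of Hspb7 had 52.2-fold enrichment with its midpoint at -980 bp, and no library of Hspb7 exceeded 0.199 FPKM. Dnaic1, U05342 and 1700101I11Rik share their peak with an expressed gene, as described above.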

How the data were processed

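RNA was measured in 10 libraries and Bach2 binding in 1 ChIP library of mouse CD4 T cells. The expression values are FPKM per the file headers, made by the authors with TopHat and Cufflinks from unique reads on mm9, per the labels' protocols and the submitters' processing notes. For these tools, and for Bowtie, which the submitters' processing notes name for the ChIP and input, the version is not given in the sources used here. Read totals are not in these files, so the depth behind an FPKM is unknown. Per the file headers, the authors called peaks with MACS 1.4.0beta at a p-value cutoff of 1e-05, setting 8992019 tags of the ChIP against 9999999 of the input. Its tag count per peak, fold enrichment (a ratio to background), FDR in percent and score (10 times −log10 p) are used as deposited. The input library was not analysed here on its own.

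Strand came from the mm9 annotation for 22509 of 23700 loci (21779 by symbol, 145 by synonym, 585 by overlap of at least 0.5 of the locus), and 1191 without a strand were left out. Sequences came from the mm9 genome. The 3 Bach2KO and 3 WT iTreg libraries entered a two-sided limma 3.58.1 test (R 4.3.3, moderated with a trend) on log2(FPKM + 0.5), for loci with a mean of at least 0.5 FPKM and no failed estimate (72 loci had one), with Benjamini-Hochberg adjustment over all 11403 tested genes and a threshold of 0.05. The fit was run on simulated data with few changed genes and no scale difference between genotypes, unlike the real data. Tables were made with Python 3.11.15, pandas 2.3.3 and pysam 0.24.0. Single naive, Th1, Th2 and Th17 libraries were described only. Named genes are Bach2, the 12 start peaks with most tags, the 10 largest rises and falls among called genes without overlap and with a higher mean of at least 5 FPKM (no microRNA, snoRNA or predicted genes), up to 4 genes per list, up to 5 pairs sharing a peak, 5 genes with several peaks, and the 5 highest and 5 silent genes. Genes named beyond this rule were chosen after their values were seen, as were the ARE search and the splits by AP-1 match and tags. Some genes that the rule takes in are not reported here. The start peaks, gene lists and tests were chosen with earlier results of these data known. Alternatives covered the distance, summit, transcript starts, peak thresholds, window, pseudocount, filter, scaling, replicate block and each library left out.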

Additional observations from a re-analysis of the deposited data

How the results depend on the processing

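Counting any transcript start gave 3154 start peaks, a score of at least 100 gave 1151 and an FDR of at most 1% gave 1258, so the number depends on annotation and threshold while the share stayed between 6.84 and 14.0% of the peaks kept. Median tags were 87 at a score of at least 100, 62 within 500 bp and 50 within 2000 bp. AP-1 type matches were in 17.2% of windows of 100 bp and 31.4% of whole peaks. Of genes with a start peak, 86.1% reached 0.5 FPKM and 68.1% reached 5 FPKM in WT iTreg cells, against 82.1% at 1 FPKM. With start peaks of a score of at least 100, 861 genes were called, 503 higher and 358 lower (78.3% of 1099). Leaving out single libraries gave 1342 to 1484 called, 779 to 852 higher and 559 to 632 lower genes, and medians of 0.09 to 0.12. The median log2 difference was 0.0498 without a filter, -0.0614 after quantile normalization and -0.149 after setting equal sums.

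Same-numbered WT and Bach2KO libraries did not deviate together (correlations of -0.038, -0.039 and 0.005). This gives no sign of pairing by replicate number but cannot exclude it, and the labels do not state it. With the replicate number as a block, 1359 genes were called, 793 higher and 566 lower, with a median of 0.11.

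Values of 111 tested genes taken by the naming rule were compared under alternatives. Of 1442 values, 1406 kept their direction and call, 21 lost the call, 2 gained it and 13 changed sign. Genes named beyond the rule are not counted, such as Dnaja1, Socs3, Ftl1 and Folr4, whose calls changed as given above. After quantile normalization and after setting equal sums, signs turned for Cd28 (-0.0337 and -0.0398), Cd4 (-0.0888 and -0.0776), Rps18 (-0.19 and -0.26), Tpt1 (-0.0778 and -0.219) and Zfp91 (-0.13 and -0.23). Ubqln1 turned to -0.0204 with equal sums. With single libraries left out, Mir142 ranged from -0.611 to 0.0317 (without WT replicate 3) and Rps18 from -0.0456 (without Bach2KO replicate 3) to 0.0468. Cd28 and Cd4 were called (0.39 and 0.30) without Bach2KO replicate 2. FPKM without counts leaves the depth of low genes unknown, and 1 ChIP library leaves every peak value without replicate error.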
